A study of Mus musculus with 4 samples.

Results

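Branchiomeric muscle transcription factors were followed here as 6 listed genes, Tcf21, Msc, Lhx2, Tlx1, Myf5 and Myod1. Each was matched by its Ensembl identifier in all 4 gene tables of the series, among the 27514 identifiers that these tables shared. The list was given by name, with no threshold on a measured value, though earlier results of these data were known when it was drawn up. The assay was droplet single-cell RNA-seq, in which a unique molecular identifier (UMI) marks each captured transcript 3′ end.

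Branchiomeric muscles are the muscles of the jaw, face, throat and parts of the neck. They arise from pharyngeal mesoderm rather than from somites, and their progenitors share an origin with second heart field cells that feed the growing heart. Tcf21 and Msc (also called MyoR) are basic helix-loop-helix factors of early head muscle precursors, Lhx2 is a LIM-homeodomain factor of the same precursors, and Tlx1 is a homeodomain factor best known for its requirement in spleen formation. Myf5 and Myod1 are the basic helix-loop-helix factors that commit cells to skeletal muscle.

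All 4 libraries held GFP-positive, DAPI-negative sorted cells of Swiss Webster embryos, in which Cre made from the Tbx1 locus had switched on a Rosa26 GFP reporter. Control cells (Ctrl) were Tbx1Cre/+;Rosa26-GFPflox/+ and conditional knockout cells (cKO) were Tbx1Cre/flox;Rosa26-GFPflox/+, so that both genotypes carried the Cre allele, a knock-in that inactivates the Tbx1 copy it sits in, and the cKO carried a floxed allele in place of the wild-type one. Each genotype was sampled at E8.5, from the upper body, and at E9.5, from the pharyngeal apparatus and heart with, by the study's sample table, the back attached, as 1 library of pooled embryos per group. No value therefore has a replicate, genotype and library cannot be told apart, and the 95% ranges in brackets cover counting error only.

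At E8.5 there were 1434 cell barcodes for Ctrl and 1090 for cKO, and at E9.5 there were 5453 and 6266, with medians of 15887.5 to 23883 UMIs per barcode. Mitochondrial transcripts took 1.40% to 2.21% of the UMIs, and pairs of libraries shared 2 to 55 barcodes. Levels are UMIs per 1000000 UMIs of the same cells (UPM). Tbx1, the targeted gene, was at 86.4 UPM (Ctrl) and 118 UPM (cKO) at E8.5, and at 103 and 134 UPM at E9.5. These are 3′ end counts, the sources used here do not say which exons are lost from the floxed allele, and the Tbx1 level is thus no check of its deletion.

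By RefSeq gene models of GRCm38.p6, Tcf21 lies on chromosome 10 from 22817263 to 22820143 and Msc on chromosome 1 from 14753344 to 14756089. Lhx2 lies on chromosome 2 from 38339271 to 38369737 and Tlx1 on chromosome 19 from 45150092 to 45156943. Myf5 lies on chromosome 10 from 107482908 to 107486927 and Myod1 on chromosome 7 from 46376474 to 46379092. No pair of members are neighbours. The 250 bases before a RefSeq start of Lhx2 (chr2:38339031-38339280, plus strand) and of Tlx1 (chr19:45150465-45150714, plus strand) follow, since these are the genes that differed together between the genotypes. Capitals mark the E-box CANNTG, the motif of basic helix-loop-helix factors.
Lhx2: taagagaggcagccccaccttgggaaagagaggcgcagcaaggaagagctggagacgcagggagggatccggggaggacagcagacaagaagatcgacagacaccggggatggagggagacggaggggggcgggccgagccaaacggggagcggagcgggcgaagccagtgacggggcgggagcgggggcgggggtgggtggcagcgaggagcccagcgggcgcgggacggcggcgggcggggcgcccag
Tlx1: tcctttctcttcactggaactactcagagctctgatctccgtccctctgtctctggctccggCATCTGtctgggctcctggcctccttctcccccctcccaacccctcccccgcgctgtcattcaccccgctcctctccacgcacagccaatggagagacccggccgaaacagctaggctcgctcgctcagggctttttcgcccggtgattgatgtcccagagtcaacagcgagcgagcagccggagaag
The Tlx1 window held 1 E-box and the Lhx2 window none, where 66.2% of 32851 such windows of all genes held at least 1 on either strand. Neither held the letters GGTGTGA of a T-box core, which 3.33% of all windows held. The Lhx2 window was 72.8% G or C and the Tlx1 window 62.0%. A second Lhx2 start and the windows of Tcf21 and Myf5 held neither motif, and the 4 matched members were those with a window in the RefSeq table.

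In Ctrl cells Msc, Lhx2, Tlx1 and Myf5 were lower at E8.5 than at E9.5, while Tcf21 was at a similar level at both stages. Tcf21 had 697 UMIs in Ctrl E8.5, or 27.6 UPM [25.6, 29.7], and 2211 UMIs in Ctrl E9.5, or 23.5 UPM [22.5, 24.5]. Msc went from 86 UMIs and 3.41 UPM [2.73, 4.21] to 1018 UMIs and 10.8 UPM [10.1, 11.5]. Only for Tcf21 was the E8.5 level the higher of the pair.
Lhx2 had 184 UMIs and 7.29 UPM [6.28, 8.42] at E8.5 and 1515 UMIs and 16.1 UPM [15.3, 16.9] at E9.5. Tlx1 had 118 UMIs and 4.68 UPM [3.87, 5.6] at E8.5 and 1422 UMIs and 15.1 UPM [14.3, 15.9] at E9.5. Both homeobox genes were thus higher in the later library by more than their counting ranges.
Myf5 rested on 6 UMIs at E8.5 (0.238 UPM) and on 190 UMIs at E9.5 (2.02 UPM [1.74, 2.32]). Myod1 had 2 UMIs at E8.5 and 12 at E9.5, too few for a ratio with a useful range.
On the log2 scale the E9.5 level over the E8.5 level was -0.24 [-0.36, -0.11] for Tcf21, 1.66 [1.35, 2.0] for Msc, 1.14 [0.92, 1.37] for Lhx2, 1.69 [1.42, 1.97] for Tlx1 and 3.08 [1.93, 4.55] for Myf5. Of the 5 members with at least 20 UMIs over both libraries, 4 were at least 2-fold higher and 0 at least 2-fold lower, where 18.1% of the 14441 genes tested were that much higher and 2.98% that much lower. The median ratio of all genes was 0.39, and relative to it the ratios were -0.62 for Tcf21, 1.28 for Msc, 0.75 for Lhx2, 1.30 for Tlx1 and 2.70 for Myf5. Tcf21 changed direction with the cells kept: without epithelial, endothelial and neural cells its log2 ratio was 0.078. The tissue dissected also differed between the stages and cannot be told apart from time.

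**Figure D1:**
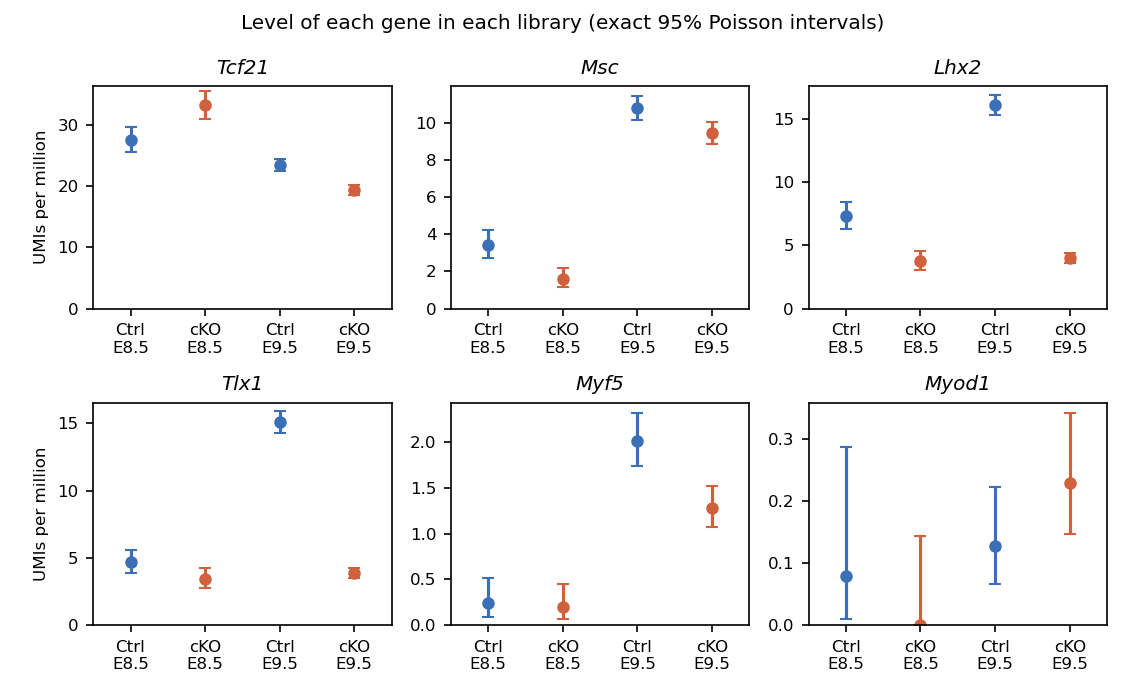
Level of each gene in UPM (y axis, from 0) in the 4 libraries (x axis), with blue points for Ctrl, orange points for cKO and bars for exact 95% Poisson intervals. Lhx2 and Tlx1 stand at 16.1 and 15.1 in Ctrl E9.5 and near 4 in cKO E9.5, while the Tcf21 and Msc points of these libraries lie close to each other.

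The genotypes were then compared at each stage, which asks how the muscle regulators differ when Tbx1 is inactivated in its own lineage. At E9.5 the homeobox genes Lhx2 and Tlx1 were about 4-fold lower in cKO, whereas Tcf21 and Msc stayed near the median ratio of all genes. At E8.5, Msc and Lhx2 were about 2-fold lower and Tcf21 was slightly higher.
In cKO E9.5, Lhx2 had 419 UMIs, or 4.0 UPM [3.63, 4.41], against 16.1 UPM in Ctrl, a log2 ratio of -2.0 [-2.16, -1.85] and a 4.01-fold lower level. Tlx1 had 402 UMIs, or 3.84 UPM [3.48, 4.24], against 15.1 UPM, a log2 ratio of -1.97 [-2.14, -1.81]. Among the 15130 genes with at least 20 UMIs, 2.71% had a ratio as low as that of Lhx2 and 2.78% one as low as that of Tlx1.
Tcf21 had 2024 UMIs in cKO E9.5, or 19.3 UPM [18.5, 20.2], a log2 ratio of -0.28 [-0.37, -0.19]. Msc had 989 UMIs, or 9.45 UPM [8.87, 10.1], a log2 ratio of -0.19 [-0.32, -0.06]. The median ratio of all genes was -0.26, so relative to it Tcf21 stood at -0.02 and Msc at 0.07, and under TMM scaling Msc turned to 0.066.
Among the myogenic determination genes, Myf5 had 134 UMIs in cKO E9.5, or 1.28 UPM [1.07, 1.52], against 2.02 UPM in Ctrl, a log2 ratio of -0.65 [-0.98, -0.33]. Myod1 had 24 UMIs against 12, with a log2 ratio of 0.85 [-0.21, 1.98] whose range includes 0. All 6 members had enough UMIs, and 2 were at least 2-fold lower and 0 at least 2-fold higher, where 9.8% of all genes tested were that much lower and 3.56% that much higher.
At E8.5 the cKO library held 856 Tcf21 UMIs, or 33.3 UPM [31.1, 35.6], a log2 ratio of 0.27 [0.12, 0.41]. Msc had 41 UMIs, or 1.59 UPM [1.14, 2.16], a log2 ratio of -1.10 [-1.67, -0.54]. Lhx2 had 96 UMIs, or 3.73 UPM [3.02, 4.56], a log2 ratio of -0.97 [-1.34, -0.60]. The Tcf21 range thus lay above 0 at this stage and those of Msc and Lhx2 below it.
Tlx1 had 88 UMIs in cKO E8.5, or 3.42 UPM [2.74, 4.21], with a log2 ratio of -0.45 [-0.87, -0.04]. Myf5 had 5 UMIs and Myod1 0, which allows up to 0.143 UPM. Of the 4 members with enough UMIs, 1 was at least 2-fold lower and 0 at least 2-fold higher, where 1.3% of the 12762 genes tested were that much lower and 2.92% that much higher. The median of all genes was 0.04 here.

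**Figure D2:**
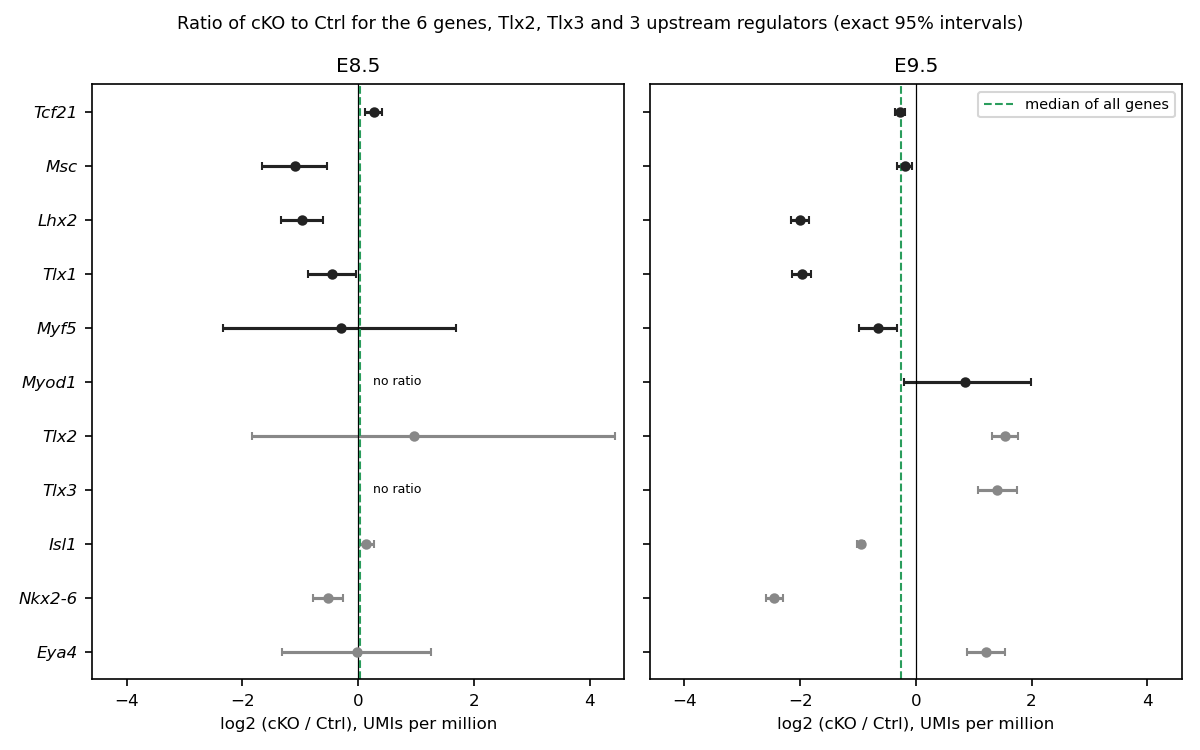
log2 ratio of cKO to Ctrl in UPM (x axis), with E8.5 in the left panel and E9.5 in the right one, for the 6 genes (black), and Tlx2, Tlx3 and the upstream regulators Isl1, Nkx2-6 and Eya4 (grey), with exact 95% intervals and the median of all genes as a dashed green line. Lhx2 and Tlx1 lie near -2 at E9.5, Tcf21 and Msc on the dashed line, and Tlx2 and Tlx3 at 1.54 and 1.40.

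The share of cells with at least 1 UMI was taken after each cell was thinned to 10000 UMIs, which kept 1299 Ctrl and 1006 cKO cells of E8.5, and 4898 and 5548 cells of E9.5. At E9.5 both fewer cells with a UMI and fewer UMIs in those cells made up the lower Lhx2 and Tlx1 levels. Lhx2 was found in 7.45% of Ctrl [6.73, 8.22] and 2.81% of cKO cells [2.39, 3.28], with 2.01 and 1.33 UMIs per cell that had it. Tlx1 was found in 7.84% of Ctrl [7.10, 8.63] and 2.94% of cKO cells [2.51, 3.42], with 1.88 and 1.34 UMIs per cell that had it. Without thinning the shares were 9.46% and 3.93% for Lhx2 and 10.2% and 3.86% for Tlx1.
Tcf21 was found in 12.6% of Ctrl and 11.7% of cKO cells at E9.5, and Msc in 4.70% and 4.43%, with ratios of shares whose ranges include 0 on the log2 scale. Myf5 was found in 1.41% of Ctrl [1.10, 1.78] and 1.03% of cKO cells [0.779, 1.33]. Myod1 was found in 7 Ctrl cells and 13 cKO cells.
At E8.5, Tcf21 was found in 15.9% of Ctrl and 19.8% of cKO cells, Lhx2 in 7.24% and 3.28%, and Tlx1 in 3.23% and 3.38%. The log2 ratio of shares of Lhx2 was -1.14 [-1.76, -0.56], but -0.46 without thinning and -2.09 at 2 or more UMIs, and that of Tlx1 was 0.06 [-0.63, 0.75] and -2.09 at 2 or more UMIs. Msc was found in 41 Ctrl cells (3.16%) and 10 cKO cells (0.994%), and this gap too depended on depth, with a log2 ratio of shares of -1.67 [-2.83, -0.65] at 10000 UMIs and -0.21 at 4000 UMIs.

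Cells were next gated on counts of detected marker genes that exclude the 6 members. A branchiomeric gate asked for 5 of 9 markers, Isl1 and Tbx1 among them, and a second heart field gate for 3 of 10 (Isl1, Fgf10, Fgf8, Mef2c, Hand2, Nkx2-5, Tbx5, Foxf1, Wnt2, Osr1). Gates for multilineage progenitor (Arg1, Rdh10, Vamp8, Aplnr, Nrg1), mesenchyme and somitic markers were set in the same way, and cells of these mesodermal gates may overlap. Epithelial, endothelial, neural, neural crest, blood and cardiomyocyte gates took precedence. In Ctrl E9.5 the branchiomeric gate held 345 cells, 274 of them at the lowest count allowed, and 29.8% of cells met no gate, so a gate is a range of marker counts and not a pure cell type. Cells outside the labelled pharyngeal mesoderm were present, as at E9.5 the epithelial gate took 14.6% of the Ctrl and 3.30% of the cKO cells and the endothelial gate 7.41% and 1.66%. With epithelial, endothelial and neural cells left out, the E9.5 ratios over all cells were -2.31 for Lhx2, -0.55 for Tcf21 and -0.50 for Msc.

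In Ctrl E9.5, Tcf21 spread over all cardiopharyngeal gates, Msc and Lhx2 had their highest shares in the branchiomeric gate, and Tlx1 in the second heart field and cardiomyocyte gates. The gates left much unassigned, as 56.5% of the cells with Msc, 58.9% of those with Lhx2 and 60.9% of those with Myf5 met no gate. Tcf21 was found in 46.8% of second heart field [41.7, 52.0], 43.3% of multilineage progenitor [37.1, 49.8], 31.0% of branchiomeric [26.2, 36.2] and 24.4% of cardiomyocyte-gated cells [17.3, 32.7]. The ranges of the first pair of gates overlapped, and so did those of the last pair. In mesenchyme-gated cells it was found in 1.02% and in endothelial-gated cells, which should lack it, in 1.65%.
Msc was found in 19.4% of branchiomeric-gated cells [15.4, 24.0], against 5.29% in the second heart field gate [3.26, 8.05] and 2.02% in the multilineage progenitor gate. Lhx2 was found in 23.5% of branchiomeric-gated cells [19.1, 28.3], against 6.88% in both the second heart field and the multilineage progenitor gate. In the endothelial gate these shares were 0.275% and 1.38%, at a median of 20221 UMIs per cell before thinning against 17192 in the branchiomeric gate.
Tlx1 followed another order, with 28.8% of second heart field [24.3, 33.7] and 23.7% of cardiomyocyte-gated cells [16.7, 31.9], 10.1% of multilineage progenitor, 8.99% of branchiomeric and 8.25% of epithelial-gated cells. In endothelial-gated cells the Tlx1 share was 3.31%. The ranges of the first pair overlapped, and so did those of the last 3.
Myf5 was found in 4.35% of branchiomeric-gated cells [2.45, 7.07] and in 0.275% of endothelial-gated cells. Myod1 was found in 5 branchiomeric-gated cells (1.45%), which were 5 of the 7 cells with Myod1. Cells that met no gate also held members, with Lhx2 in 14.7% and Myf5 in 2.87% of them.

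**Figure D3:**
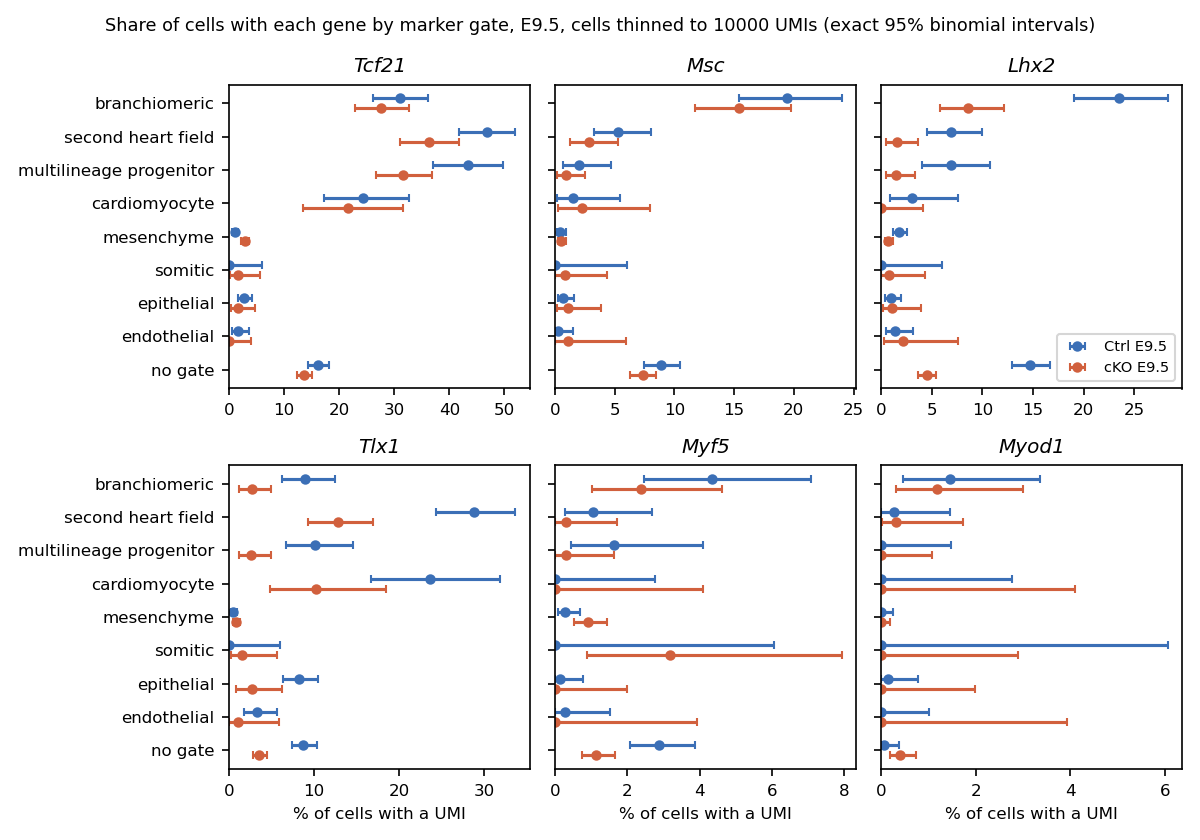
Share of cells with a UMI of each gene (x axis, percent, from 0) by marker gate (y axis) at E9.5 after thinning to 10000 UMIs, with blue points for Ctrl, orange points for cKO and bars for exact 95% binomial intervals. Lhx2 is highest in the branchiomeric gate, at 23.5% in Ctrl and 8.61% in cKO, and Tlx1 in the second heart field gate, at 28.8% and 12.8%.

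In the branchiomeric, second heart field and multilineage progenitor gates, Lhx2 and Tlx1 were lower in cKO E9.5 than in Ctrl E9.5, as they were over all cells. In the branchiomeric gate (337 cKO cells) Lhx2 was at 57.1 UPM in Ctrl and 13.2 in cKO, a log2 ratio of -2.11 [-2.48, -1.76], and Tlx1 at 26.4 and 5.05, a log2 ratio of -2.38 [-2.99, -1.83]. Tcf21 was at 67.0 and 55.1 UPM, with a log2 ratio of -0.28 [-0.49, -0.07], and Msc at 50.7 and 36.3, with -0.48 [-0.73, -0.23]. Myf5 rested on 40 and 18 UMIs, with a log2 ratio of -1.08 [-1.97, -0.25]. Of the 5 members with enough UMIs, 3 were at least 2-fold lower, where 6.47% of all genes tested in this gate were.
The gate itself uses Isl1, Tbx1 and Eya4, which differed between the genotypes, Eya4 with a log2 ratio of 1.21 over all cells. With Isl1 and Tbx1 left out, Eya4 kept and fewer markers asked, the Tcf21 ratio turned to 0.22 and that of Msc moved to -0.04. Those of Lhx2 and Tlx1 stayed within their ranges. The effects of the markers left out and of the lower count asked were not told apart. With 1 more marker asked, 73 Ctrl and 70 cKO cells were left and the Myf5 ratio turned to 0.13.
In the second heart field gate (320 cKO cells) Tlx1 was at 52.7 UPM in Ctrl and 16.0 in cKO, a log2 ratio of -1.72 [-2.06, -1.39], and Tcf21 at 72.6 and 53.3, with -0.45 [-0.66, -0.24]. Msc went from 48 to 17 UMIs, a log2 ratio of -1.28 [-2.17, -0.45], and Lhx2 from 79 to 13 UMIs, a log2 ratio of -2.38 [-3.35, -1.53]. Of the 4 members with enough UMIs, 3 were at least 2-fold lower, where 5.44% of all genes tested in this gate were. Asking 1 more marker moved the Msc ratio to -0.28 and that of Lhx2 to -0.68.
In the multilineage progenitor gate, Lhx2 had 67 UMIs in Ctrl and 9 in cKO, a log2 ratio of -3.34 [-4.53, -2.33], and Tcf21 a log2 ratio of -0.69 [-0.93, -0.46]. This gate uses Aplnr and Nrg1, which the study reported as reduced in cKO progenitors. At the lowest count allowed were 58.7% of its Ctrl and 82.4% of its cKO cells. Their median number of second heart field markers was 3 in Ctrl and 1 in cKO. No alternative of this gate was run, so its ratios may compare different cells. In the cardiomyocyte gate, Tlx1 had 73 and 24 UMIs, a log2 ratio of -1.17 [-1.90, -0.49]. In the mesenchyme gate the Tlx1 range included 0, with a log2 ratio of -0.35 [-1.13, 0.44]. Lhx2 had -1.07 [-1.69, -0.46] there, from 58 and 39 UMIs. Its range in the endothelial gate included 0, with -0.55 [-3.74, 1.60]. Cells that met no gate had log2 ratios of -2.32 [-2.52, -2.12] for Lhx2, -2.11 [-2.35, -1.88] for Tlx1 and -1.29 [-1.75, -0.84] for Myf5. The mesenchyme gate went the other way for Tcf21, with 1.73 UPM in Ctrl and 4.74 in cKO [4.05, 5.52], a log2 ratio of 1.45 [0.96, 1.97]. The Ctrl share of 1.02% was under the endothelial share and is read as background. In cKO the share was 2.87%, and the level lay above the range of the epithelial gate, at 1.39 UPM [0.45, 3.24]. The cKO endothelial gate held no Tcf21 UMI, which allows up to 2.15 UPM. Other cKO gates were higher, the neural one at 7.90 UPM [4.20, 13.5] from 13 UMIs and the blood one at 18.7 [6.07, 43.6] from 5 UMIs. Those gates held other markers too. The 17 blood-gated cells had a median of 4 mesenchyme markers, and the 76 neural-gated cells a median of 4 branchiomeric ones. Neither is thus a reference known to lack Tcf21, and whether the cKO mesenchyme level is above background was not tested.
At E8.5 the branchiomeric gate (108 Ctrl and 123 cKO cells) gave log2 ratios of 0.06 [-0.29, 0.41] for Tcf21, -1.88 [-3.11, -0.76] for Msc and -1.94 [-3.04, -0.93] for Lhx2, the last from 30 and 12 UMIs. In the second heart field gate of that stage Tcf21 had a log2 ratio of 0.40 [0.12, 0.68] and Tlx1 one of -1.0 [-1.70, -0.32], from 47 and 32 UMIs.

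Cells were also split by UMIs of Tcf21 and Msc, the early head muscle factors, to follow the other members in them. At E9.5 there were 152 cells with both in Ctrl and 126 in cKO after thinning, or 3.1% and 2.27% of cells, and 22 and 6 at E8.5. In Ctrl E9.5, Lhx2 was found in 54.6% of these cells [46.3, 62.7], Tlx1 in 27.6% [20.7, 35.5] and Myf5 in 11.2% [6.65, 17.3]. In cKO E9.5, Lhx2 was found in 24.6% [17.4, 33.1], Tlx1 in 7.94% [3.87, 14.1] and Myf5 in 5.56% [2.26, 11.1]. The Lhx2 and Tlx1 ranges of the genotypes did not overlap, and those of Myf5 did.
In UPM, Lhx2 went from 127 to 34.1 in these cells, a log2 ratio of -1.90 [-2.26, -1.56], Tlx1 from 65.7 to 10.5, a log2 ratio of -2.64 [-3.29, -2.05], and Myf5 from 17.4 to 8.11, a log2 ratio of -1.10 [-1.92, -0.34]. All 3 of the other members with enough UMIs were at least 2-fold lower, where 7.83% of all genes tested in these cells were. Myod1 had 4 and 6 UMIs.
Cells with Tcf21 but no Msc UMI (464 Ctrl and 522 cKO cells) held Lhx2 in 25.9% and 6.70% and Tlx1 in 30.4% and 8.62%. Cells with Msc but no Tcf21 UMI (78 and 120 cells) held Lhx2 in 48.7% and 16.7%, but Tlx1 in 14.1% and 3.33%. Cells with neither held Lhx2 in 2.95% and 1.46% and Tlx1 in 4.52% and 2.18%.
Myf5 was lower in cKO in the cells with Tcf21 and higher in those with neither gene. Its log2 ratio was -1.89 [-2.64, -1.18] in cells with Tcf21 alone, from 74 and 22 UMIs, and 0.69 [0.11, 1.27] in cells with neither, from 41 and 73 UMIs.

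**Figure D4:**
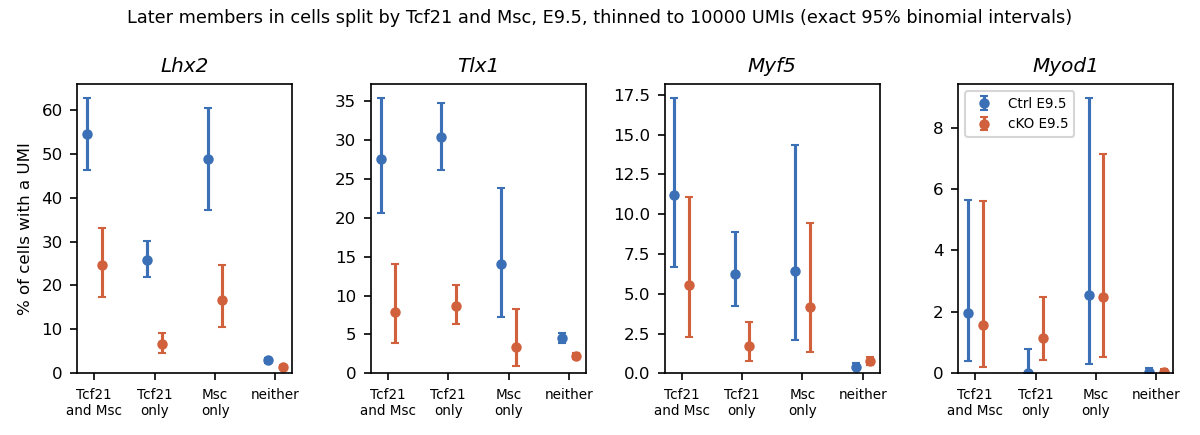
Share of cells with a UMI of Lhx2, Tlx1, Myf5 or Myod1 (y axis, percent, from 0) in E9.5 cells split by UMIs of Tcf21 and Msc (x axis), with blue points for Ctrl, orange points for cKO and bars for exact 95% binomial intervals. Lhx2 is at 54.6% in Ctrl and 24.6% in cKO among cells with both genes, and the cells with neither stay under 5% for all 4 genes.

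Co-detection per cell was counted for the 15 pairs and set against the number expected if the shares were independent. In Ctrl E9.5, 999 of 4898 cells held at least 1 member, 439 at least 2 and 192 at least 3, and in cKO E9.5 these were 972, 242 and 62 of 5548 cells. No cell of any library held all 6. The most frequent combinations of 2 or more in Ctrl E9.5 were Tcf21 with Tlx1 alone (90 cells), Tcf21 with Lhx2 alone (59) and Tcf21 with Msc and Lhx2 (54). In cKO E9.5 they were Tcf21 with Msc alone (80), Tcf21 with Tlx1 alone (39) and Tcf21 with Msc and Lhx2 (29).
Tcf21 and Msc met in 152 Ctrl E9.5 cells, 5.25 times [4.45, 6.16] the 28.9 expected, and in 126 cKO cells, 4.39 times [3.65, 5.22]. Msc and Lhx2 met in 121 Ctrl cells, 7.06 times [5.86, 8.44] the 17.1 expected, and in 51 cKO cells, 7.37 times [5.49, 9.69]. The ranges of the genotypes overlapped for both pairs, although Lhx2 was in fewer cKO cells.
Lhx2 and Tlx1 met in 98 Ctrl E9.5 cells, 3.42 times expected [2.78, 4.17], and in 9 cKO cells, 1.96 times [0.898, 3.73]. The cKO excess depended on depth, at 4.46 after thinning to 4000 UMIs and 2.84 without thinning, where Ctrl was at 3.73 and 3.05, so no difference between the genotypes is read from this pair. Msc and Tlx1 met in 53 Ctrl cells, 2.94 times [2.20, 3.84], and in 14 cKO cells, 1.94 times [1.06, 3.25]. In both libraries Msc thus had a lower excess with Tlx1 than with Lhx2, beyond the counting ranges. At E8.5 the excess of Tcf21 with Msc was 3.37 [2.11, 5.10] in Ctrl, from 22 cells. All pairs share their cells and libraries, and cells of many types enter the expected number, so any gene kept to the same tissue would give an excess.

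**Figure D5:**
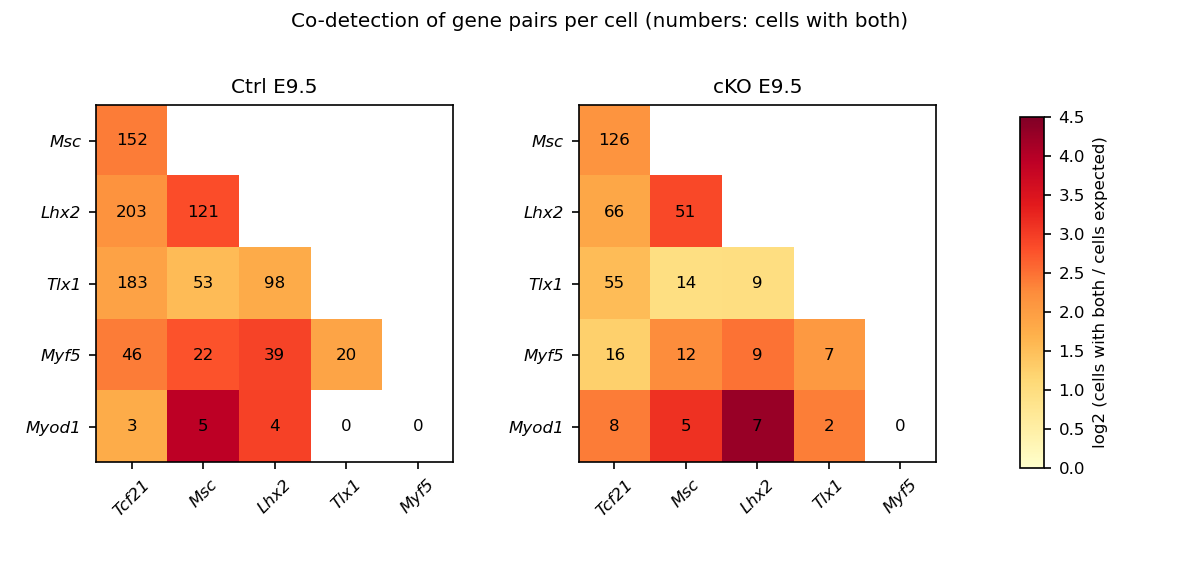
Pairs of genes (x and y axes) at E9.5 in Ctrl (left) and cKO (right), with the number of thinned cells that held both and the log2 ratio of that number to the number expected as the colour; pairs never found together are white. Msc with Lhx2 is at 121 and 51 cells, and Lhx2 with Tlx1 at 98 and 9 cells.

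The cells with Myf5 differed between the E9.5 libraries in which other members they held. Of 69 Ctrl cells with Myf5, 56 (81.2%) also held Tcf21, Msc, Lhx2 or Tlx1, and of 57 cKO cells 24 did (42.1%). Tcf21 was in 46 of the Ctrl cells (66.7%) and 16 of the cKO cells (28.1%), and Lhx2 in 39 (56.5%) and 9 (15.8%). Isl1, a LIM-homeodomain factor of cardiopharyngeal progenitors, was in 38 (55.1%) and 11 (19.3%). Over all cells, Lhx2 was in 7.45% (Ctrl) and 2.81% (cKO), and Isl1 in 28.8% and 16.8%. For Tcf21 these shares were 12.6% and 11.7%. Lhx2 and Myf5 met 7.58 times expected [5.39, 10.4] in Ctrl and 5.62 times [2.57, 10.7] in cKO. Tcf21 and Myf5 met 5.3 times expected in Ctrl and 2.4 times in cKO. The ranges of the genotypes overlapped for both pairs, for Tcf21 only narrowly. The lower Lhx2 share is thus not shown to be particular to cells with Myf5.
Trunk and mesenchyme genes were also counted in these cells. Pax3, which acts upstream of Myf5 in somites, was in 0 of 69 Ctrl and 5 of 57 cKO cells. Meox1, a somite gene, was in 6 (8.70%) and 12 (21.1%) of them, and Prrx1, a mesenchyme gene, in 12 (17.4%) and 22 (38.6%). Both were also more frequent over all cKO cells, as Meox1 was in 18.2% of all Ctrl and 38.1% of all cKO cells and Prrx1 in 36.7% and 61.6%. Of the cKO cells with Myf5, 31.6% passed the mesenchyme gate, and 5.80% of the Ctrl ones did, where the gate held 35.8% of all cKO and 30.1% of all Ctrl cells. Most of these cells had a single UMI of Myf5, 56 of 69 in Ctrl and 48 of 57 in cKO. The share in mesenchyme-gated cKO cells was 0.906%. None of 183 epithelial-gated and 92 endothelial-gated cKO cells held Myf5, which allows up to 2.0% and 3.93%. These bounds are too wide to tell a share of 0.906% from background. Somitic-gated cKO cells held Myf5 in 3.17%, and epithelial-gated Ctrl cells in 0.140%. Free transcripts as the source of the Myf5 UMIs were not tested.
Cells with Myod1 held other members in both genotypes. All 13 cKO cells with Myod1 held Tcf21, Msc, Lhx2 or Tlx1, as did 6 of the 7 Ctrl cells. After thinning, no cell held both Myf5 and Myod1, and at full depth 1 Ctrl E9.5 and 4 cKO E9.5 cells did. At E8.5 the 4 Ctrl cells with Myf5, each with 1 UMI of it, held none of Tcf21, Msc, Lhx2 and Tlx1. Neither did 993 of all 1299 Ctrl E8.5 cells. All 4 held Tcf15, a somite gene found in 35.2% of all Ctrl E8.5 cells.

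A list of 15 upstream regulators of head muscle was set beside the members. At E9.5, 1 of its 15 genes was at least 2-fold lower in cKO and 1 at least 2-fold higher. Of all genes tested, 9.8% were that much lower and 3.56% that much higher. The median log2 ratio of the list was -0.03 against -0.26 for all genes. The lower gene was Nkx2-6, a homeobox gene of pharyngeal pouches and the early heart, at 23.6 UPM in Ctrl and 4.35 in cKO, a log2 ratio of -2.44 [-2.59, -2.30]. The higher gene was Eya4, a transcriptional cofactor, with 108 and 278 UMIs and a log2 ratio of 1.21 [0.89, 1.55]. Isl1 was at 64.7 and 33.4 UPM, a log2 ratio of -0.95 [-1.01, -0.89].
At E8.5, 14 of the 15 had enough UMIs and 0 passed 2-fold either way, where 1.3% of all genes tested were 2-fold lower and 2.92% higher. The median of the list was 0.19 against 0.04 for all genes.
In Ctrl E9.5 these regulators sorted with different members. Isl1 was in 73.4% of cells with Tlx1 and in 25% of the others, and Nkx2-6 in 34.6% and 10.8%. Ebf1, a helix-loop-helix factor, was in 81.1% of cells with Lhx2 but in 40.6% of cells with Tlx1.
In cKO E9.5, Isl1 was in 23.2% of the cells with Msc, where it was in 55.2% of them in Ctrl. Cells with Tlx1 still held Isl1 in 52.1%, against 15.7% of the others.

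Several genes of later muscle differentiation were at or near 0. Myog, which drives differentiation, had no UMI at E8.5 and 4 (Ctrl) and 8 (cKO) at E9.5, and Myf6, a late myogenic factor, had 10 and 21 at E9.5. Chrna1, a subunit of the muscle acetylcholine receptor, had 6 and 19 UMIs at E9.5, and Mymk, which fuses myoblasts, 1 and 0. They belong to a list of 15 muscle genes that is not confined to differentiation, as it also holds Pax3, Pax7, Lbx1, Met and Dll1. Of these 15, 12 had enough UMIs at E9.5, with a median of -0.10. At least 2-fold lower was 1 of them (Pax7, 18 and 3 UMIs) and 2 were at least 2-fold higher (Chrna1 and Lbx1, the latter with 5 and 19 UMIs). Of all genes tested, 9.8% were that much lower and 3.56% that much higher. Actc1, which heart muscle also expresses, had a log2 ratio of -0.97 [-1.02, -0.91] and Des, an intermediate filament gene of both muscle types, one of -0.0021. At E8.5, 7 of the 15 had enough UMIs and 0 passed 2-fold either way, with a median of 0.54. Of all genes tested there, 1.3% were 2-fold lower and 2.92% higher.
Tlx2 and Tlx3, relatives of Tlx1, were higher in cKO at E9.5. Tlx2 had 218 UMIs in Ctrl and 706 in cKO at E9.5, a log2 ratio of 1.54 [1.32, 1.77], and Tlx3, a homeobox gene of sensory neurons, had 99 and 290, a log2 ratio of 1.40 [1.07, 1.74]. Of 8 related factors, 5 had enough UMIs, with a median of 1.21, and 3 were at least 2-fold higher and 0 at least 2-fold lower. The third was Lhx9 with 7 and 18 UMIs, a log2 ratio of 1.21 [-0.12, 2.71] whose range includes 0. Of all genes tested, 3.56% were that much higher and 9.8% that much lower. At E8.5 only 2 had enough UMIs and 0 passed 2-fold, with a median of -0.14. At E9.5, neural-gated cells made up 0.470% of the Ctrl and 1.37% of the cKO library, and their part in the Tlx2 and Tlx3 levels was not tested.

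The genes detected in the cells most like each member in Ctrl E9.5 were named by the phi coefficient of detection over 4898 cells, among genes found in at least 1% of them. Hlx, a homeobox gene known from gut and liver mesenchyme, came first for 4 members, with a phi of 0.41 for Tcf21, 0.39 for Msc, 0.47 for Lhx2 and 0.24 for Myf5. The next places were taken by members themselves, as Lhx2 (0.37) and Msc (0.36) followed for Tcf21, and Lhx2 (0.38) and Tcf21 (0.36) for Msc. For Lhx2 they were Msc (0.38) and Tcf21 (0.37).
Hlx was found in 372 Ctrl E9.5 cells, 189 of which held Lhx2. In cKO E9.5 its phi was 0.22 with Tcf21, 0.34 with Msc and 0.28 with Lhx2.
Tlx1 stood apart, with Kazald1 (0.41), Edn1, the ligand endothelin 1 (0.32), and Tcf21 (0.31) as the most alike. Kazald1 and Tlx1 met in 179 Ctrl cells and in 68 cKO cells, where their phi was 0.26. For Myf5, Lhx2 (0.22) and the collagen gene Col25a1 (0.22) followed Hlx. These coefficients come from 1 library and all its points share that library and depth.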

How the data were processed

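Droplet single-cell 3′ RNA-seq was analysed in 4 libraries, 1 per group. The deposited values were raw UMI counts per gene and barcode, which the authors made with Cell Ranger (3.1.0 in the submitters' processing notes, 3.0.2 in the E8.5 headers) on mm10, with no normalization or cell annotation. The cKO E9.5 gene table listed 31053 genes, and that of each other library 27998. Only the 27514 shared identifiers were used, which held 99.4% to 99.9% of UMIs. The gene table thus also differed between the E9.5 genotypes, and its effect on the counts was not tested. No filter was applied to the barcodes, of which library pairs shared 2 to 55. Levels were UMIs per 1000000 UMIs of the same cells (UPM). Sums carried exact 95% Poisson intervals, ratios exact conditional binomial intervals and shares Clopper-Pearson intervals. With 1 library per group no test was run, and ratios needed more than 3 UMIs in at least 1 of the sums. Ratios of all genes used those with at least 20 UMIs over both libraries. Shares used cells thinned at random to 10000 UMIs, which left out 7.71% to 11.5% of barcodes. Doublets were not called, and leaving out the deepest 5% of barcodes served as an alternative.

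The members, marker lists and gene lists were chosen with earlier results of these data known, and the number of markers each gate asked for was set after the counts were seen. Named genes were the 6 members, Tbx1, genes of the lists where their counts are described, and for each member in at least 1% of Ctrl E9.5 cells the 3 genes with the highest phi. Mymk was matched through its older symbol Tmem8c. Ratios and intervals were tested on simulated counts, and thinning was checked on the real libraries for Tbx1, Tcf21 and Prrx2. Python 3.11.15, numpy, scipy and pandas were used, with edgeR 4.0.16 for TMM factors only. RefSeq (GRCm38.p6) gave gene positions and promoter windows, and the latter matched 4 of 6 members. Some genes of the lists are not reported here.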

Additional observations from a re-analysis of the deposited data

Results flagged for a closer look

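Tcf21 was the member whose ratio of cKO to Ctrl had opposite signs at the 2 stages, with both counting ranges away from 0: its log2 ratio was 0.27 at E8.5 and -0.28 at E9.5. The difference between the stages was not tested, since each rests on 1 library per genotype. The median of all genes was 0.04 at E8.5 and -0.26 at E9.5, and under TMM scaling the Tcf21 ratios were 0.22 and -0.019.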

How the results depend on the processing

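No paired analysis was possible because each group was 1 library, and for the same reason no replicate could be left out. Of 186 alternative values for 57 results, 11 changed sign, 5 of them for values whose counting range excluded 0. Lhx2 and Tlx1 at E9.5 were lower in cKO in all 19 alternatives each, with log2 ratios from -2.94 to -0.68 and from -2.64 to -1.40. Under TMM and median-of-ratios size factors, the E9.5 log2 ratios over all cells were -0.019 and -0.0078 for Tcf21, 0.066 and 0.078 for Msc, -1.75 and -1.73 for Lhx2, and -1.71 and -1.70 for Tlx1. Without epithelial, endothelial and neural cells they were -0.55 for Tcf21, -0.50 for Msc and -2.31 for Lhx2. The log2 ratio of shares at 2 or more UMIs was -2.14 for Lhx2 and -2.17 for Tlx1. It was -1.69 for Lhx2 without those cells and -1.78 for Tlx1 at 4000 UMIs. In the branchiomeric gate with 1 more marker, Lhx2 was at -2.94 and Myf5 at 0.13. Without Isl1 and Tbx1 and with fewer markers asked, an alternative chosen after seeing the data, Tcf21 was at 0.22. In the second heart field gate without Isl1 and Mef2c and with fewer markers asked, also chosen later, Tlx1 was at -2.12. In cells with either Tcf21 or Msc, Lhx2 was at -2.26. Between the stages in Ctrl, TMM gave -0.55 for Tcf21, 0.83 for Lhx2 and 1.38 for Tlx1, and leaving out those cells gave 0.078 for Tcf21 and 1.44 for Lhx2. The median of the upstream regulators at E9.5 was 0.23 under TMM. With no filter on low counts, 17.2% of genes were 2-fold lower and 8.96% higher at E9.5, and 9.16% and 11.5% at E8.5. The cause of these shifts was not tested. Depth limits Myod1 at both stages and Myf5 at E8.5, which rest on 24 UMIs or fewer in a library.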

Other observations

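Between E8.5 and E9.5 the cKO libraries differed less in Lhx2 and Tlx1 than the Ctrl libraries did. The log2 ratio of E9.5 to E8.5 in cKO was 0.10 [-0.22, 0.44] for Lhx2 and 0.17 [-0.17, 0.52] for Tlx1, beside 1.14 and 1.69 in Ctrl. Msc was higher at E9.5 in both genotypes, with log2 ratios of 2.57 [2.12, 3.06] in cKO and 1.66 in Ctrl, and Tcf21 was lower in both, with -0.78 [-0.90, -0.67] and -0.24. These ratios come from the same 4 libraries as the comparison of genotypes and are no separate evidence, and the difference between the genotypes' stage ratios was not tested.

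Tlx1 was also found in epithelial-gated and endothelial-gated cells. In Ctrl E9.5, 59 of 715 epithelial-gated cells held it, at 8.99 UPM [7.49, 10.7], and in cKO E9.5 5 of 183 did, at 1.94 UPM [0.781, 4.0]. The Ctrl share of 8.25% lay above the 3.31% of endothelial-gated Ctrl cells, and the range of the cKO share of 2.73% [0.893, 6.26] overlapped that of the 1.09% [0.0275, 5.91] of endothelial-gated cKO cells. In the same Ctrl cells Lhx2 was at 1.77 UPM and Msc at 1.13 UPM. At E8.5, 4 of 53 endothelial-gated Ctrl cells and 6 of 37 cKO cells held Tlx1. In the same cells Lhx2 was found in 4 (Ctrl) and 0 (cKO), Tcf21 in 3 and 2 and Msc in none. Msc was in 3.16% of all Ctrl and 0.994% of all cKO cells of this stage, so its absence from so few cells is uninformative.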
